A study of Mus musculus with 7 samples.

Results

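The mouse miRNA hairpin mmu-mir-210 was examined in 7 small RNA libraries of HL-1 cells, an immortalised line derived from mouse atrial cardiomyocytes. It is 1 of 655 hairpins on which deposited tags could be placed. The hairpin was chosen by name, with earlier results of these data known. Each tag, a distinct sequence with its raw count, was placed where it matched best over all mouse hairpins with at most 2 mismatches, and tags were then summed by arm, start, end and base change. HL-1 cells were plated sparsely and do not beat at day 1 of culture, while most of them beat by day 4. Small RNA came from time course 2 at days 1, 2, 3 and 4 and from time course 1 at days 1, 3 and 4, with 1 library at each point. The time courses carry the labels' replicate numbers and, per the study's methods, are independent repeats. All 7 libraries are of the same untreated line, and neither the labels nor the methods give a low-oxygen treatment.

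miR-210 is the miRNA best known for its induction by low oxygen. Hypoxia-inducible factor binds its promoter, and the miRNA lowers mitochondrial iron-sulphur cluster assembly by repressing Iscu. In the heart it is known from ischaemia, where raised miR-210 has been linked to survival of cardiomyocytes. The 3p arm of the hairpin is the guide strand that is loaded into Argonaute, and the 5p arm is its passenger strand, or miR*.

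The hairpin and its mature arms are shown because all later positions are counted on them. The sequences are those of RefSeq on GRCm38.p6, 5′ to 3′, with the mature arms in capitals in the hairpin and the seed (bases 2 to 8) in capitals in the mature arms.
mmu-mir-210 hairpin: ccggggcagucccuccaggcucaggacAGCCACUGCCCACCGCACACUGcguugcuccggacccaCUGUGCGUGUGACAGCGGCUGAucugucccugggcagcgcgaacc
miR-210-3p: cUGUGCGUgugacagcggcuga
miR-210-5p: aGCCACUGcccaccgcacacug
The hairpin of 110 nt lies on the minus strand at chr7:141221384-141221493, miR-210-3p at chr7:141221407-141221428 and miR-210-5p at chr7:141221445-141221466 (all GRCm38). No other GENCODE gene overlaps it. The nearest are the protein-coding genes Rassf7, 2726 bp away, and Phrf1, 7291 bp away, both on the plus strand. Among 1679 RefSeq mature mouse sequences searched, 0 others had the seed of miR-210-3p and 0 others that of miR-210-5p.

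The libraries held 4945112 to 6899476 tags each. Cardiac and skeletal muscle miRNAs (miR-1a-3p, miR-133a-3p, miR-208a-3p, miR-208a-5p and miR-499-5p, all with tags) summed to 8.03 to 9.91% of the placed tags of a library, whereas markers of endothelium summed to 0.0483 to 0.0922%, of blood cells to 0.00214 to 0.00407%, of neurons to 0.00121 to 0.00253%, and of fibroblasts and liver to less. Most of the muscle tags were of miR-1a-3p (2650942 merged tags) and miR-133a-3p (901589). miR-499-5p had 277, fewer than the 677 of the neuron marker miR-9-5p.

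mir-210 gave 376914 tags of 518 distinct sequences, 0.918% of all placed tags, and 0 of these sequences fell equally well on another arm. miR-210-3p had 365877 tags and miR-210-5p 11037. By merged tags miR-210-3p ranked 27 among 1161 miRNA arms, between miR-133b-3p (384323 tags), a muscle miRNA, and the broadly expressed miR-191-5p (341894 tags). miR-210-5p ranked 158. The rank of miR-210-3p within a library varied between 13, at day 4 of time course 1, and 52, at day 2 of time course 2.

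miR-210-3p was more abundant in time course 1 than in time course 2 on every day that both cover, and within each time course it stood higher at day 4 than at day 1. Levels are given as CPM, the tag count scaled by TMM to a common library size and expressed per 1e+06 placed tags. At day 1 miR-210-3p had 4167 CPM in time course 2 and 9184 CPM in time course 1. The only library of day 2, from time course 2, had 3035 CPM. At day 3 the values were 4793 CPM in time course 2 and 16653 CPM in time course 1. At day 4 they were 7208 CPM in time course 2 and 20600 CPM in time course 1. The lowest library of time course 1, at day 1, lay above the highest of time course 2, at day 4, so that the time courses did not overlap while the days did. Such separation is not particular to miR-210-3p. It was also seen in the same direction for miR-31-3p and in the other direction for miR-129-3p, and its share over all arms was not counted. In these bulk libraries fewer cells with the miRNA and less of it per cell cannot be told apart, and neither can differences in culture, library preparation or sequencing between the time courses.

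**Figure D1:**
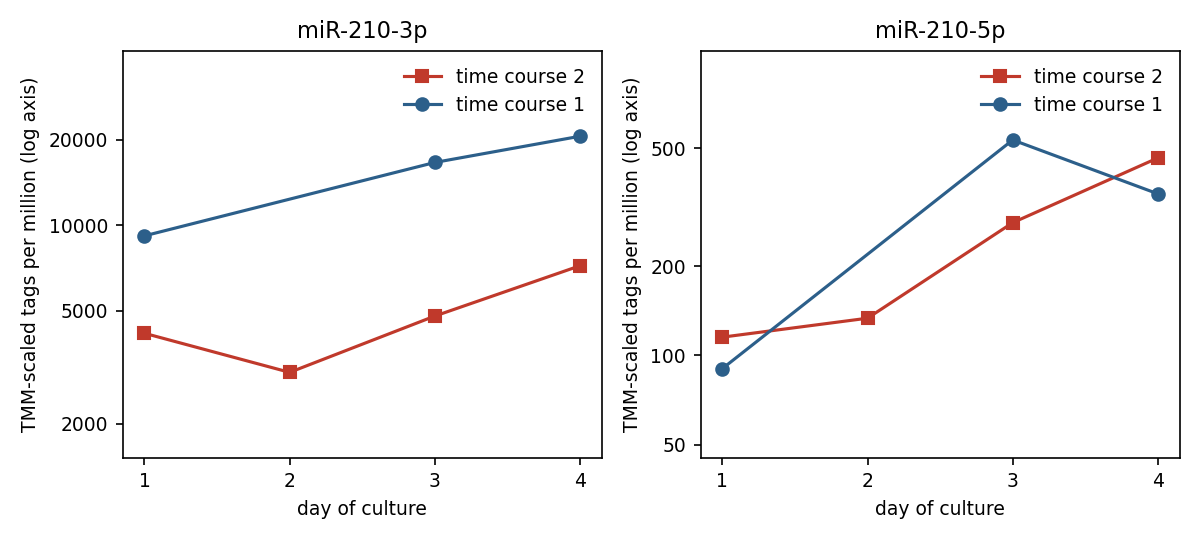
Level of miR-210-3p (left) and miR-210-5p (right) in CPM on log axes, against the day of culture, 1 point per library, with time course 2 as red squares and time course 1 as blue circles. The 3p values of time course 2 (3035 to 7208 CPM) lie below those of time course 1 (9184 to 20600 CPM) on every shared day, while the 5p values of the time courses cross.

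The difference between the time courses was larger than the residual spread between libraries. miR-210-3p averaged 4801 ± 1762 CPM in time course 2 (SD, n = 4) and 15479 ± 5798 CPM in time course 1 (SD, n = 3). With day in the model, edgeR's quasi-likelihood test gave a log2 fold change of -1.48 (SE 0.21) for time course 2 against time course 1, with an adjusted p = 2.15e-05. In this comparison 68 of 728 arms were called (9.34%), 46 of them higher and 22 lower in time course 2, and miR-210-3p had the 7th smallest p. Because libraries of the same time course are not independent cultures, neither this p nor these calls measure the spread between repeats. The fold change kept its sign in all alternatives run, between -1.68 and -1.38. The call was lost without the day 1 library of time course 2 (edgeR adjusted p = 0.131, 0 arms called) and without the day 3 library of time course 1 (edgeR adjusted p = 0.0684, 4 arms called).

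For the passenger strand no such difference was called. Whether the arms differ in this contrast was tested on the 5p share, given below. At day 1 miR-210-5p had 115 CPM in time course 2 and 90.2 CPM in time course 1. The day 2 library of time course 2 had 134 CPM. At day 3 the values were 281 CPM in time course 2 and 533 CPM in time course 1, and at day 4 they were 464 CPM in time course 2 and 351 CPM in time course 1. The 4 libraries of days 3 and 4 were thus all above the 3 of days 1 and 2, and neither time course was the higher throughout. Days 3 and 4 also stood above days 1 and 2 in all libraries for miR-208a-5p, and the share of such arms was not counted. For time course 2 against time course 1 the log2 fold change of miR-210-5p was -0.05 (SE 0.30, edgeR adjusted p = 0.944), and its sign turned with the filter and with the libraries included.

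Between days, both arms had a higher CPM at day 4 than at day 1 in each time course, relative to the other miRNAs. For miR-210-3p the day 4 level was 1.73 times the day 1 level in time course 2 and 2.24 times in time course 1. For miR-210-5p it was 4.03 times in time course 2 and 3.89 times in time course 1. Without the time course in the model the differences did not pass the threshold of 0.05. The log2 fold change at day 4 against day 1 was 1.06 (SE 0.67, edgeR adjusted p = 0.639) for miR-210-3p and 1.99 (SE 0.42, edgeR adjusted p = 0.167) for miR-210-5p. Without the day 4 library of time course 1 the value for miR-210-3p was 0.07, and without the day 1 library of time course 1 it was 1.71 (edgeR adjusted p = 0.997 and 0.661). edgeR called 0 of 728 arms (0%), with 73 arms at an unadjusted p under 0.05, and DESeq2 called 13. With the time course as a block both arms passed, miR-210-3p at 0.97 (SE 0.26, edgeR adjusted p = 0.0306) and miR-210-5p at 1.99 (SE 0.37, edgeR adjusted p = 0.00159). In that fit 49 of 728 arms were called (6.73%), 20 higher and 29 lower at day 4. miR-210-5p had the 7th smallest p there and miR-210-3p the 20th. DESeq2, without the block, also called miR-210-5p (log2 fold change 1.97, adjusted p = 0.00154).

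For miR-210-5p the mean difference from day 1 was as large at day 3 as at day 4, but the time courses differed. Its day 3 level was 2.43 times the day 1 level in time course 2 and 5.91 times in time course 1. At day 3 against day 1 it stood higher by 1.99 on the log2 scale (SE 0.42, edgeR adjusted p = 0.241, with 0 of 728 arms called, 0%, and 38 at an unadjusted p under 0.05, against 9 called by DESeq2). With the block the value was 1.97 (SE 0.38, edgeR adjusted p = 0.00242, 13 of 728 arms called, 1.79%), and with DESeq2 it was 2.01 (adjusted p = 0.00258). Between day 4 and day 3 its mean level differed by 0.00 on the log2 scale (SE 0.41, edgeR adjusted p = 0.999). This mean joins opposite moves. From day 3 to day 4 miR-210-5p went from 281 to 464 CPM in time course 2 and from 533 to 351 CPM in time course 1. miR-210-3p at day 3 against day 1 differed by 0.68 (SE 0.67, edgeR adjusted p = 0.947) and with the block by 0.53 (SE 0.26, edgeR adjusted p = 0.386). Without the day 3 library of time course 1 the sign of the 3p difference turned, to -0.53.

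Strand use was strongly biased towards the 3p arm in every library. The ratio of miR-210-3p to miR-210-5p tags lay between 15.5, at day 4 of time course 2, and 102, at day 1 of time course 1. The mean log2 ratio was 5.03 ± 0.98 (SD, n = 7), above 0 in 7 of 7 libraries. A two-sided exact sign-flip permutation test gave p = 0.0156, the smallest value that 7 libraries allow. Since the 3p arm is the known guide strand, this outcome was foreseeable, and the p adds little to the ratios themselves. Libraries of the same time course are not independent cultures, which this test does not take into account.

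The bias was not the same in all libraries. Of the tags on mir-210, the 5p arm took 2.69% at day 1 of time course 2 (95% Wilson interval 2.50 to 2.89) and 0.973% at day 1 of time course 1 (0.903 to 1.05). At day 2 it took 4.21% (3.93 to 4.52). At day 3 it took 5.53% of the mir-210 tags in time course 2 (5.27 to 5.80) and 3.10% of those in time course 1 (2.99 to 3.22). At day 4 it took 6.05% of the mir-210 tags in time course 2 (5.84 to 6.26) and 1.67% of those in time course 1 (1.60 to 1.76). The share was thus higher in time course 2 on each shared day, and in both time courses it was lowest at day 1. The intervals cover counting error only, since reads without molecular identifiers are not independent molecules.

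**Figure D2:**
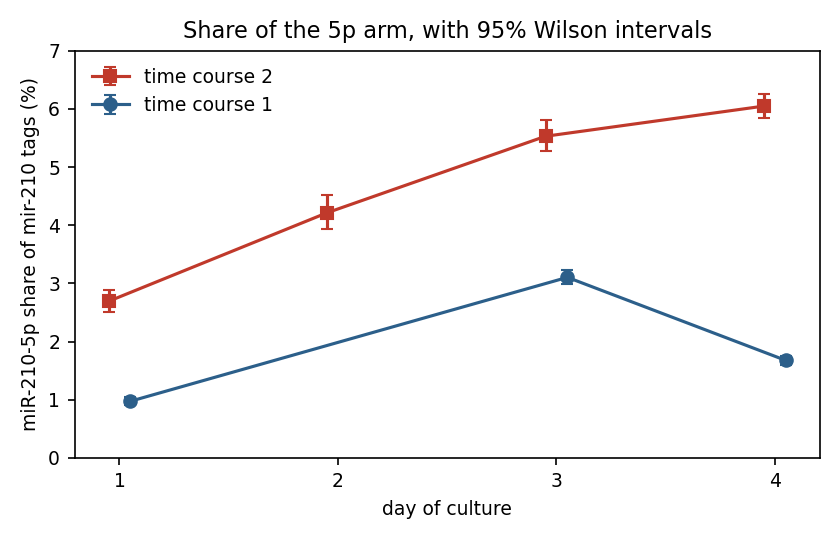
Share of mir-210 tags on the 5p arm in percent, against the day of culture, with 95% Wilson intervals and 1 point per library. Time course 2 (red squares, 2.69 to 6.05%) lies above time course 1 (blue circles, 0.973 to 3.10%) on each shared day.

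Across 220 hairpins with both arms covered, limma on log2 odds put the 5p share of mir-210 higher in time course 2 by 1.43 (SE 0.40), with an unadjusted p = 0.00514 and an adjusted p = 0.113. This did not pass the threshold, while 4 of 220 hairpins did (1.82%). A difference between the arms in the contrast of the time courses was thus not called. For day 4 against day 1 the 5p share differed by 1.01 (SE 0.79, limma adjusted p = 0.732), and 0 of 220 hairpins were called (0%), with 23 at an unadjusted p under 0.05. Without the day 4 library of time course 2 this difference was 0.047, and without that of time course 1 it was 1.96. Over 224 hairpins with at least 50 tags in every library, the merged 5p share of mir-210 (2.93%) was low, with 46 hairpins below it and a median of 50.8%.

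The most frequent tags of both arms are shown because they carry the values on isomiRs, the length and end variants of a miRNA. They are written as in the files, with T for U, and with the seed in capitals.
miR-210-3p reference form: cTGTGCGTgtgacagcggctga
miR-210-3p, end 1 nt later: cTGTGCGTgtgacagcggctgat
miR-210-3p, end 2 nt later: cTGTGCGTgtgacagcggctgatc
miR-210-3p, end 1 nt earlier: cTGTGCGTgtgacagcggctg
miR-210-3p, start 1 nt earlier: aCTGTGCGtgtgacagcggctga
miR-210-5p reference form: aGCCACTGcccaccgcacactg
miR-210-5p, end 1 nt later: aGCCACTGcccaccgcacactgc
The reference form made up 53.8 ± 6.92% of miR-210-3p tags (SD over 7 libraries) and ranged between 45.7 and 66.1%. The forms with the end 1 nt and 2 nt later made up 13.9 ± 4.98% and 8.32 ± 4.32%, and their added bases match the hairpin. For miR-210-5p the reference form made up 59.0 ± 6.60% and the form that ends 1 nt later 22.1 ± 4.88%.

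The 5′ end of miR-210-3p, which sets the seed, was tightly fixed. Of its tags 96.1 ± 0.53% began at the reference base, and 3.76 ± 0.52% began 1 nt earlier, with the seed CUGUGCG in place of UGUGCGU. All other starts were rare, with starts 1 nt later at 0.114 ± 0.03%. No mature sequence among the 1679 searched had either shifted seed (0 for a start 1 nt earlier and 0 for a start 1 nt later). The share off the reference start was 3.10 and 3.52% at day 4 (time course 2 and time course 1) and 4.60 and 3.89% at day 1 (time course 2 and time course 1). The log2 odds differed by -0.37 (SE 0.23, limma adjusted p = 0.739) at day 4 against day 1, where 0 of 321 arms were called (0%) and 29 had an unadjusted p under 0.05. Merged over libraries, 3.77% of miR-210-3p tags and 2.62% of miR-210-5p tags were off the reference start, beside a median of 4.56% over 324 arms.

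3′ ends varied more, and they varied between libraries. The share of miR-210-3p tags off the reference end was 47.8% and 45.2% at day 1 in time course 2 and time course 1. It was 41.1% at day 2, 37.3% at day 3 in time course 2 and 21.6% at day 3 in time course 1. At day 4 the off-end tags made up 32.5% (time course 2) and 34.2% (time course 1). The libraries of day 1 were the highest and both libraries of day 4 lay below them. The log2 odds at day 4 against day 1 differed by -0.80 (SE 0.39, limma adjusted p = 0.567), which did not pass the threshold, and 0 of 316 arms were called (0%), with 26 at an unadjusted p under 0.05. For miR-210-5p the same difference was -0.71 (SE 0.22, unadjusted p = 0.0215, limma adjusted p = 0.432). Between time course 2 and time course 1 the 3p difference was 0.38 (SE 0.29, limma adjusted p = 0.633), with 0 of 316 arms called (0%) and 25 at an unadjusted p under 0.05. It was 0.019 without either day 3 library and 0.63 without either day 4 library.

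The day 3 library of time course 1 held few long miR-210-3p tags. Ends 2 nt or more past the reference end made up 0.956% of its miR-210-3p tags, against 6.68 to 17.3% in the other 6 libraries. In the same library such ends made up 3.11% of miR-210-5p tags (range over the 7 libraries 2.48 to 6.07%) and 11.1% of the tags of all other arms (10.1 to 13.5%). Shorter tags of miR-210-3p, with ends before the reference end, were at 11.2% there and at 8.13 to 10.3% in the others. Merged over libraries, 34.7% of miR-210-3p tags were off the reference end, with 35 of 324 arms below it and a median of 63.5%.

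**Figure D3:**
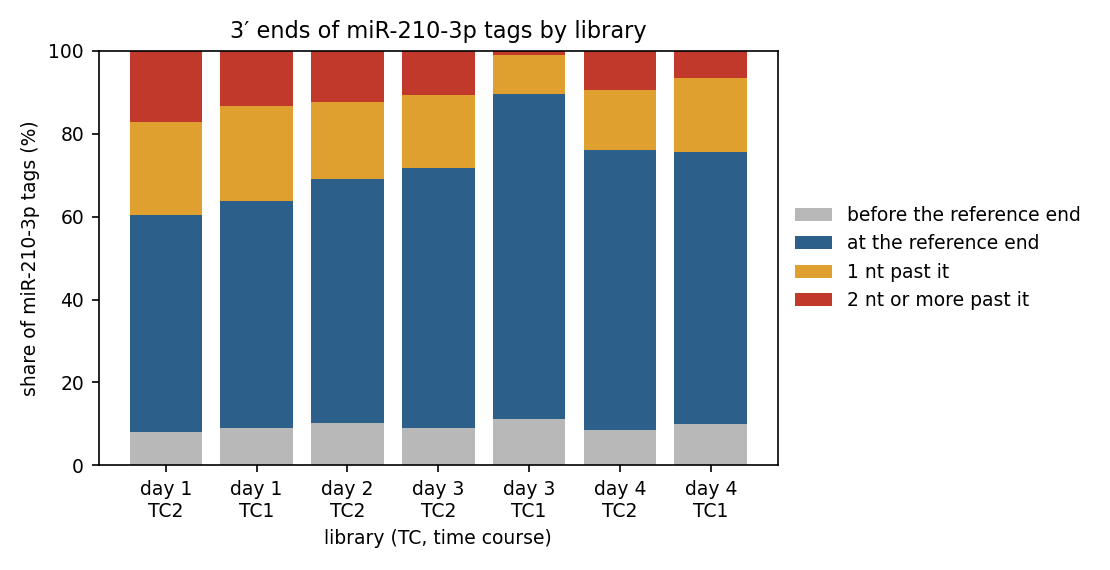
Stacked shares of miR-210-3p tags in percent by 3′ end, for the 7 libraries in order of day (TC, time course). Ends 2 nt or more past the reference end (red) fill 6.68 to 17.3% of a bar except at day 3 of time course 1, where they fill 0.956%.

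Base changes inside miR-210-3p were frequent and lay at a few bases. Tags with a base change made up 7.996 and 7.36% of miR-210-3p tags at day 1 in time course 2 and time course 1, 11.7% at day 2, and 10.02 and 13.7% at day 3 in time course 2 and time course 1. At day 4 they made up 20.5% in time course 2 and 6.66% in time course 1. Over all other arms the share stayed between 5.02 and 8.95%. Merged over libraries, 10.7% of miR-210-3p tags had a base change, which ranked 76 from the highest among 324 arms, over a median of 6.96%. The log2 odds for miR-210-3p at day 4 against day 1 differed by 0.70 (SE 0.70, limma adjusted p = 0.999, 0 of 314 arms called, 0%, 5 at an unadjusted p under 0.05). Without the day 4 library of time course 2 the sign turned, to -0.22.

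The most frequent changed tags are shown with the changed base in capitals, because the changes crowd into the 3′ part of the miRNA. Positions are counted from 1 at the reference 5′ base of miR-210-3p, with the hairpin's base first and the tag's base last.
G18A: ctgtgcgtgtgacagcgActga
G17A: ctgtgcgtgtgacagcAgctga
G18C: ctgtgcgtgtgacagcgCctga
T20A: ctgtgcgtgtgacagcggcAga
Of 39268 changes on miR-210-3p tags, 92.7% fell on positions 17 to 20 and 55.6% on position 18 alone, whereas 201 fell in the seed. G18A was found in 14278 tags, G17A in 6434, G18C in 5514, T20A in 4274, T20C in 2721 and G18T in 2051. G-to-A changes made up 57.5% of all changes. Their share over all other arms was not computed, and the paper lists G-to-A changes in many other miRNAs too. A-to-G changes, the kind that adenosine deaminases acting on RNA give, made up 0.247%. The reference sequence has no A at positions 17 to 20, where most changes fell. In 0 of 365877 tags did the change sit at the last base of the tag, while 0.0173% of the tags of all other arms had one there. The authors flagged changes at the last base apart, as additions not templated by the hairpin. Whether the deposited tags keep them was not tested, so these shares do not measure such additions.

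Changes at this place were not specific to miR-210-3p. By position in the tag, all other arms had their highest share at position 17 (1.84%) and 1.73% at position 18. miR-210-3p had 1.79% at position 17 and 5.83% at position 18, and 14 of 322 other arms that reached 50 tags in every library had a higher share at position 18, over a median of 1.21%. miR-210-5p had 0.607% at position 17 and 0.208% at position 18. Position 18 is the last base of the 18-nt anchor by which the authors mapped tags, and the part of that anchor in these shares was not tested.

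**Figure D4:**
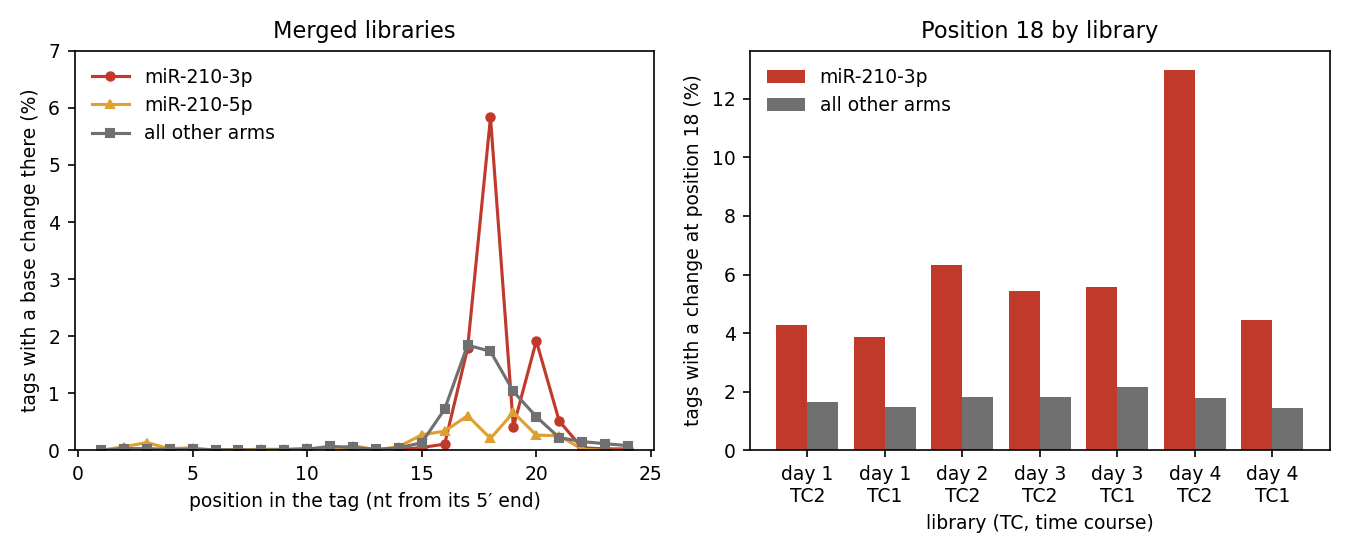
Left, percent of tags with a base change at each position of the tag, in nt from its 5′ end, for miR-210-3p, miR-210-5p and all other arms over the merged libraries. Right, percent of tags with a change at position 18 in each library (TC, time course), for miR-210-3p and all other arms, where the day 4 library of time course 2 stands at 13.0% for miR-210-3p and at 1.79% for all other arms.

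Single changes differed between libraries. G18A was at 10.3% of covering tags at day 4 of time course 2, and at 2.34 to 4.11% in the other 6 libraries. G17A was at 3.33% at day 4 of time course 2 and at 3.16% at day 3 of time course 1, and at 0.589 to 1.62% elsewhere. T20A was highest at day 3 of time course 1, at 2.71%, against 0.388 to 1.38% in the others. G18A and G17A thus had their highest share in the same library and T20A in another.

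The arms whose levels over the 7 libraries were most like that of miR-210-3p were miR-107-3p (Pearson r = 0.99), miR-103-3p (r = 0.98), miR-23b-3p (r = 0.95), miR-23a-3p (r = 0.93) and miR-511-3p (r = 0.90). These values are on log2 CPM over 324 arms that reached 50 tags in every library and are a description, since the points share libraries and the contrast between time courses. miR-103 and miR-107 lie in introns of pantothenate kinase genes and share a seed, miR-23a and miR-23b belong to the miR-23/27/24 clusters, and miR-511 lies in an intron of Mrc1. Reads of miR-103-3p and miR-107-3p, and of miR-23a-3p and miR-23b-3p, differ by few bases, so that the split of counts within each pair is uncertain. miR-210-5p, the other arm of the same hairpin, had r = 0.55 and ranked 62. Of the 5 arms, miR-107-3p, miR-103-3p, miR-23b-3p and miR-23a-3p also stand on the list of hypoxia-linked miRNAs, which was chosen with earlier results of these data known. They are the pairs of similar reads named above. The overlap is a description only, since the share of listed arms among the 324 was not counted and a link to hypoxia was not tested.

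These arms spanned a smaller range than miR-210-3p. miR-107-3p had 12381 and 14553 CPM at day 1 (time course 2 and time course 1), 11226 CPM at day 2, 12320 and 16532 CPM at day 3, and 14471 and 17339 CPM at day 4. For time course 2 against time course 1 its log2 fold change was -0.31 (SE 0.19, edgeR adjusted p = 0.343), and those of miR-103-3p, miR-23b-3p and miR-23a-3p were -0.52, -0.43 and -0.36 (edgeR adjusted p = 0.0976, 0.167 and 0.27). miR-511-3p was called, at -0.84 (SE 0.26, edgeR adjusted p = 0.039).

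**Figure D5:**
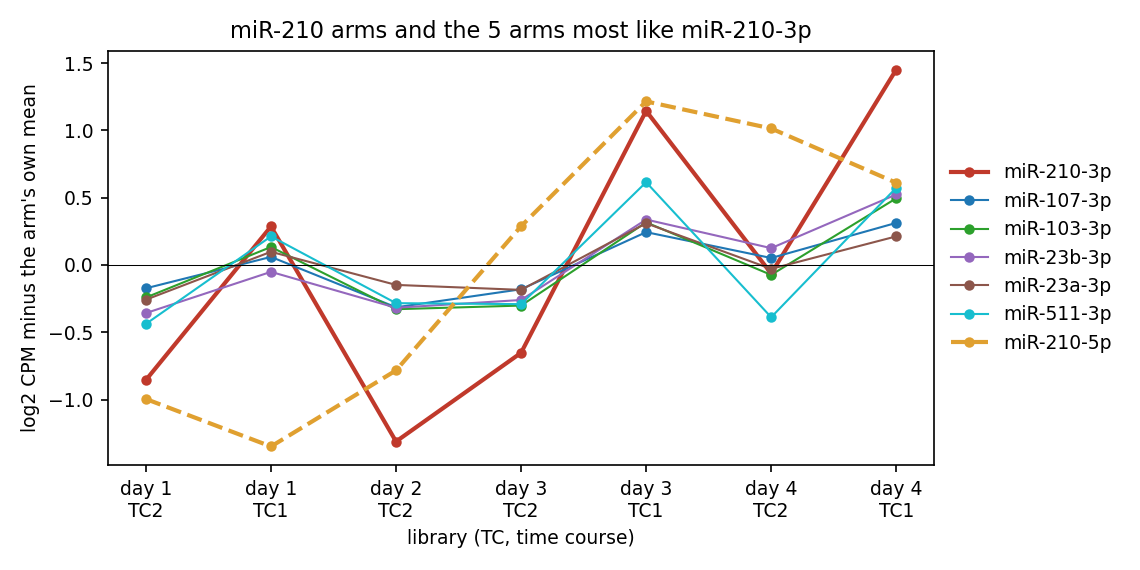
Log2 CPM minus each arm's own mean over the 7 libraries, in order of day (TC, time course), for miR-210-3p (thick red), the 5 arms with the highest correlation to it, and miR-210-5p (dashed). The 5 arms are highest at day 3 or day 4 of time course 1 and span a smaller range than miR-210-3p, and miR-210-5p has its 4 highest values in the libraries of days 3 and 4.

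Other miRNAs that have been linked to hypoxia were counted by the same test. Of 19 listed arms beside miR-210-3p, 18 were tested, and 1 was called lower and 0 higher in time course 2, which is near the background of 9.34% of all arms. The median log2 fold change of the 18 was -0.03, beside 0.02 over all 728 arms. The called arm was miR-199a-5p, known to repress HIF-1α in rat cardiomyocytes, at -0.97 (SE 0.30, edgeR adjusted p = 0.041) and a low level of 7.27 to 27.4 CPM. miR-21a-5p, a miRNA induced by many kinds of stress, differed by 0.16 (SE 0.22, edgeR adjusted p = 0.752). miR-24-3p, of the miR-23/27/24 clusters, differed by -0.15 (SE 0.17, edgeR adjusted p = 0.642), and miR-181c-5p, known in rat heart to repress the mitochondrial transcript mt-Co1, by 0.41 (SE 0.28, edgeR adjusted p = 0.405).

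At day 4 against day 1 no arm of the list was called. edgeR called 0 of the 18 arms without the block and 0 with it, where 6.73% of all arms were called, and their median log2 fold change with the block was 0.18, beside 0.01 over all arms. In that fit miR-21a-5p differed by -0.55 (SE 0.27, edgeR adjusted p = 0.254), miR-24-3p by 0.18 (SE 0.21, edgeR adjusted p = 0.698), miR-107-3p by 0.24 (SE 0.24, edgeR adjusted p = 0.653) and miR-181c-5p by -0.05 (SE 0.34, edgeR adjusted p = 0.977).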

How the data were processed

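Small RNA under 70 nt of HL-1 cells was sequenced on the SOLiD platform. The authors mapped tags by 18-nt anchors to the hairpins of miRBase 16 and to the mouse genome (mm9 per the labels), and deposited for each of 7 libraries the tag sequences with their raw counts, which were not normalized. Isolated colour mismatches of low quality were accepted by the authors, and a base change needed 2 adjacent colours. Here tags of at least 16 nt were placed on 1184 hairpins (GENCODE M21, with 6 added from RefSeq) allowing 2 mismatches and an overhang of 4 bases at a hairpin end. Of 41180989 tags 92.9% were placed without a mismatch, 6.76% with 1 and 0.342% were not placed. Not used were 101 lines (293 tags) that give no sequence, and tags that fit several arms (2.12%) were divided equally and rounded.

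Tag counts were compared with edgeR 4.0.16 (filterByExpr, TMM, quasi-likelihood test, Benjamini-Hochberg adjustment, threshold 0.05) over all 7 libraries, with day as a factor (3 residual degrees of freedom), and with day and time course for the comparison of time courses. The single day 2 library is assumed to vary like the others. Standard errors of edgeR were derived from the fold change and the F statistic. Numbers pair the libraries, since they mark independent repeats and residuals of equal numbers were correlated across 728 arms (r = 0.395, 0.398 and 0.382 for days 1 and 3, 1 and 4, and 3 and 4). Shares were tested with limma 3.58.1 on log2 odds (pseudocount 0.5) for arms that reached 50 tags in each library and 10 of each outcome. The edgeR, limma and sign-flip tests were tested on simulated data. Alternatives were DESeq2 1.42.0, library totals, no filter, exact tags, tags on 1 arm, starts within 3 nt of the reference start, the time course as a block, another pseudocount or minimum, and each library left out. Arms were named by rule: both mir-210 arms and their most frequent tags, neighbours in rank, the 5 most correlated arms, and a hypoxia list counted by call with values for miR-21a-5p, miR-24-3p, miR-107-3p, miR-181c-5p and any member called. The member, the lists and the tests were chosen with earlier results of these data known.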

Additional observations from a re-analysis of the deposited data

Results flagged for a closer look

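The share of miR-210-3p tags with a base change moved in opposite directions in the time courses between day 1 and day 4. In time course 2 the change at day 4 was 12.5 percentage points (20.5% at day 4 and 7.996% at day 1), and in time course 1 it was -0.705 percentage points (6.66% at day 4 and 7.36% at day 1). For miR-210-5p the share rose by 1.43 percentage points in time course 2. In time course 1 it hardly moved, by -0.0420 (1.92% of 678 tags at day 1 and 1.88% of 1653 tags at day 4). All other arms together stood at 7.65% at day 4 and 6.65% at day 1 in time course 2, and at 5.02% at day 4 and 5.53% at day 1 in time course 1. With 1 library per day and time course, these differences between the time courses were not tested.

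On the mir-210 hairpin 113 tags of 63 distinct sequences began over 3 nt from either reference start. They include 37 tags that began 4 nt inside miR-210-3p and 8 that began at the first base of the hairpin. They are counted in the levels of the arms above. On the antisense strand of the hairpin 0 deposited tags matched exactly. Of all deposited tags only 0.342% were not placed on the sense strand of a hairpin, and the paper handled antisense tags apart. This count therefore cannot decide whether antisense tags were sequenced.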

How the results depend on the processing

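Of 181 alternative values for 15 results, 156 kept their direction and their side of the threshold, or their count within 1.5 times. At day 4 against day 1, the replicate block gave 0.97 (adjusted p = 0.0306) for miR-210-3p, 1.99 (adjusted p = 0.00159) for miR-210-5p and 49 arms called, and DESeq2 gave 1.97 for miR-210-5p (adjusted p = 0.00154) and 13 arms called, with 254 arms given no adjusted p. Leaving out each library gave 1.78 to 2.18 for miR-210-5p, called without the day 3 library of time course 2 (1.93, adjusted p = 0.0412), and 0 to 5 arms called. At day 3 against day 1, the block gave 1.97 and DESeq2 2.01 for miR-210-5p, and leaving out each library gave 1.42 to 2.30 for miR-210-5p (2.30 without the day 3 library of time course 2, adjusted p = 0.0427) and -0.53 to 1.37 for miR-210-3p. For time course 2 against time course 1, leaving out each library gave -1.68 to -1.38 for miR-210-3p and -0.31 to 0.33 for miR-210-5p, whose value without a filter was 0.046. Arms called there numbered 31 with library totals, 42 with exact tags, 17 with starts near the reference start and 0 to 61 when leaving out each library. Without the day 4 library of time course 2 the base change share differed by -0.22, within a leave-one-out range of -0.22 to 1.63. The leave-one-out ranges were 0.07 to 1.71 for miR-210-3p at day 4 against day 1, 0.047 to 1.96 for the 5p share at day 4 against day 1, and 0.019 to 0.63 for the share off the reference end in time course 2 against time course 1, with no call in any of them. The block changed no call on a share. Where fewer libraries enter, fewer degrees of freedom remain, and for the other shifts the cause was not tested. A day left with 1 library takes its spread from the other days. With 2 time courses the day comparisons rest on 2 values per group.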

Other observations

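The scarcity of long miR-210-3p tags at day 3 of time course 1 was set against other arms after its values were seen. Among 311 arms with ends 2 nt or more past the reference end in each of the other 6 libraries, the share in this library divided by the lowest share of the others was 0.143 for miR-210-3p, and 1 arm had a lower ratio. The median over these arms was 1.17, and miR-210-5p was at 1.26.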
